A study of Mus musculus with 8 samples.

Results

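Condensing spermatids of wild-type (WT) mice gave 2 kinds of DNA fragment after digestion with micrococcal nuclease (MNase), an enzyme that cuts DNA not protected by protein. Small structures, fragments of about 40 to 80 bp, are described here against the nucleosome-sized fragments of about 130 to 170 bp from cells of the same stage and genotype. Members were taken by sample and chromosome: every position the authors called in either WT library on chromosomes 1 to 19, which is 5291731 small-structure positions and 3748879 nucleosome positions, of 37461253 positions on all chromosomes in the 8 lists of the series. Each position has a summit (the point of highest coverage), a summit value (the coverage there) and a fuzziness score, the caller's measure of how widely fragments scatter around the position. A low score means a sharp position.

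Mice without the histone variant H2A.L.2, a form of histone H2A made in the testis, were compared with WT mice at 3 stages of sperm formation, the spermatocyte, the round spermatid and the condensing spermatid. Each stage, genotype and fragment class has 1 library. Besides the WT pair, the small-structure and nucleosome lists of H2A.L.2-less condensing spermatids and the nucleosome lists of WT round spermatids and WT spermatocytes were read for comparison. The sources used here state neither the strain, the age nor the number of animals, and the cells are enriched fractions, not pure populations. With 1 library in each group there is no replicate, so no test was made. Spreads given as SD are over the 19 autosomes and describe variation along the genome.

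A nucleosome is DNA wrapped around a core of histone proteins, and in spermatids the histones are removed as the nucleus condenses. Transition proteins come onto the DNA during this change, and protamines, small arginine-rich proteins, pack it for the sperm head. H2A.L.2 forms less stable nucleosomes in which the DNA ends are more open, and is known to be needed for transition proteins to load. MNase shows only how long a stretch of DNA was protected, so a small structure may be part of a nucleosome or another DNA-protein particle, and the lists do not tell which protein was bound.

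The lists differed in their heights. Summit values of small structures had a first percentile of 272, a median of 492 and a 99th percentile of 1268, and those of nucleosomes 168, 200 and 376. The highest 1% thus began at 2.58 times the median among small structures and at 1.88 times among nucleosomes. Summit values have no scale common to libraries, so only ranks within a list are compared. Neighbouring summits within 1 kb were a median of 210 bp apart among small structures and 310 bp among nucleosomes. The shortest gap was 100 bp in both lists, and every position was 140 bp wide also for the small fragments, so structures packed more closely than 100 bp cannot be seen as separate. Of the summits, 98.8% of small and 95.5% of nucleosome ones lay on a 10 bp grid, which limits the resolution of distances.

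Small-structure summits lay on nucleosome summits more often than after the nucleosome list was moved along the chromosome. Within 40 bp of a nucleosome summit lay 1255962 of the small summits, or 23.7% (95% Wilson interval 23.7% to 23.8%, SD 1.16 points). After the nucleosome list was moved by 5 kb, which roughly keeps the density of a region but not the places, the share was 17.2%. The observed share was 1.38 times the moved one, with 1.48 times on chromosome 3 and 1.33 times on chromosome 11 as the extremes of the 19 autosomes. Its size depends on the reference. A move of 10000 bp gave 1.40 times, and mean density at 0 to 40 bp was 1.33 times that at 800 to 1000 bp. Seen from the nucleosomes, which are fewer, 33.5% had a small summit within 40 bp, against 24.3% after the move. Most small summits, 76.3% by subtraction, were therefore more than 40 bp from any nucleosome summit of the same cells. Within 73 bp of a nucleosome summit lay 35.6% of the small summits.

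The density of small summits rose and fell with distance from a nucleosome summit. Against the mean density at 800 to 1000 bp, it was 1.52 ± 0.0195 times as high at 0 bp, 0.728 ± 0.0161 times at 100 bp and 1.25 ± 0.0150 times at 190 bp. These 3 values stood on the same side of 1 on every autosome, with ranges of 1.48 to 1.55, 0.701 to 0.755 and 1.22 to 1.29. The lowest point of the curve was at 100 bp and the next peak at 190 bp. No further wave of that size followed: the curve was 1.02 at 240 bp, 1.05 at 290 bp, 1.04 at 400 bp and 1.03 at 500 bp. Relative to condensing nucleosomes, distances were thus ordered over about 1 nucleosome to each side. The order reached farther around WT round spermatid nucleosomes, where small-summit density had peaks of 1.16 at 290 bp and 1.10 at 470 bp.

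A small summit at the nucleosome leaves no room for another within 100 bp, so the spacing within the small list carries over to this curve. The nucleosomes were therefore divided by whether a small summit lay within 40 bp. Around the 1255962 nucleosomes with one, the density was 0.532 ± 0.00988 at 100 bp and 1.30 ± 0.0336 at 190 bp. Around the 2492917 nucleosomes with none, it was 0.871 ± 0.0151 at 100 bp and 1.22 ± 0.0106 at 190 bp. The dip was shallower where the centre held no small summit. It followed a maximum of 1.95 at 50 bp, just outside the distance used for the division, and small summits there also leave no room for others within 100 bp. How much of the dip is the spacing within the small list cannot be told apart from these curves.

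**Figure D1:**
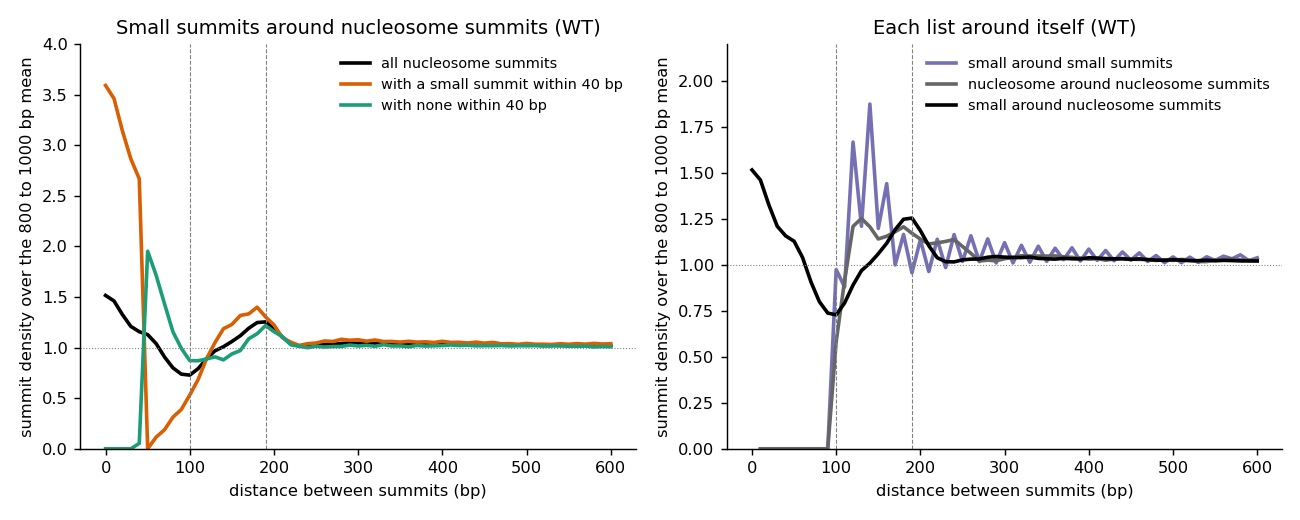
Density of summits (y axis, over the mean at 800 to 1000 bp) by distance in bp (x axis), with dashed lines at 100 and 190 bp. Left, small summits around all WT condensing nucleosomes (black), around those with a small summit within 40 bp (orange) and around those with none (green); all 3 curves are above 1 at 190 bp and below 1 at 100 bp. Right, each list around itself beside the black curve of the left panel; neither list has summits closer than 100 bp.

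The curves of each list around itself differed from the curve between lists. Small summits around small summits stood at 1.87 at 140 bp, their highest value, and at 0.956 at 190 bp. Nucleosome summits around nucleosome summits peaked at 1.25 at 130 bp and stood at 1.17 at 190 bp. Averaged over 160 to 220 bp, the density was 1.11 among small summits, 1.16 among nucleosome summits and 1.16 between the lists. Single 10 bp steps of the small list around itself are not to be read alone, because its gaps alternated: 53.9% of gaps up to 1 kb were even and 43.9% odd multiples of 10 bp, against 46.1% and 45.4% among nucleosomes.

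Counted by the nearest nucleosome, each small summit falls into 1 of 7 distance classes. Besides the 23.7% within 40 bp, 8.74% lay at 41 to 69 bp, 1.14 times the share after the move. At 70 to 130 bp lay 17.1%, less than the 20.3% after the move (0.843 times). The class at 131 to 159 bp held 4.70%, 1.03 times the moved share, and the class at 160 to 220 bp held 13.9% against 12.1% (1.15 times). Another 29.5% lay beyond 220 bp and up to 1 kb, and 2.28% farther away, 0.888 and 0.466 times the moved shares. Shares below the moved ones were therefore found at 70 to 130 bp and beyond 220 bp. The classes share 1 total, so an excess in near classes lowers the shares of far ones. The shares beyond 220 bp are thus not read as another dip. The density curve itself was 1.01 to 1.04 at 400 to 800 bp. No special step marks the 40 bp limit: 257821 small summits lay about 30 bp from the nearest nucleosome, 246622 about 40 bp and 238755 about 50 bp.

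The flanks were seldom filled on both sides. A small summit at 160 to 220 bp was found on 1 side only of 32.3% of the nucleosomes and on both sides of 6.85%, against 27.7% and 4.99% after the move. Among nucleosomes with a small summit within 40 bp, 41.1% had 1 filled flank and 10.6% had 2, which was 1.04 and 1.18 times the shares of such nucleosomes after the move (39.4% and 8.97%). Among those with none at the centre the shares were 27.9% and 4.97%, or 1.16 and 1.34 times the moved shares. The shares were thus higher with a small summit at the centre, and the excess over the move was lower.

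Between neighbouring nucleosome summits, the number of small summits followed the length of the gap. Gaps of 100 to 139 bp held a mean of 0.345 small summits (0.320 after the move), gaps of 220 to 259 bp held 0.772 (0.671), gaps of 350 to 399 bp 1.18 (1.05) and gaps of 700 to 1000 bp 2.17 (2.11). The excess over the move was 1.08-fold in the shortest gaps, 1.15-fold at 220 to 259 bp and 1.03-fold in the longest. Where a gap of 180 to 219 bp held a single small summit, it lay in the middle 20% in 15.5% of cases. It lay in the outer 20% at either end in 41.7%, both ends counted together. Even placement would give 20% in the middle and 20% at each end. In gaps of 350 to 399 bp, 28.7% of single small summits lay in the middle and 34.2% in the outer parts, both ends together. The middle thus held less than even placement gives in the shorter of these gaps and more in the longer. Even placement is not a full reference, because small summits are at least 100 bp apart and only gaps with a single one were counted. In the longer gaps, a summit in the middle leaves less room for another, which by itself favours the middle. Places within a gap were not compared with the move, so no conclusion is drawn from them. A single small summit was a median of 40.0 bp from the nearer nucleosome in the shorter of these gaps and 110 bp in the longer.

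High small summits were placed more sharply relative to nucleosomes than low ones. Small summits were ranked by summit value and divided into deciles, with ties kept together. The share within 40 bp of a nucleosome was 19.7% in the lowest decile, 22.0% in the middle (decile 5) and 33.3% in the highest, against 14.4%, 16.6% and 21.5% after the move. Relative to the move this was 1.37, 1.33 and 1.55 times. The difference of 0.177 between the extreme deciles was 0.327 with matching within 20 bp and 0.0365 within 73 bp. The order was thus not monotonic: the ratio changed little over the lower 8 deciles and was higher only in the upper ones. The density at 0 bp was likewise 1.47 ± 0.0610 in the lowest decile, 1.42 ± 0.0520 in decile 5 and 1.83 ± 0.0465 in the highest. The dip at 100 bp changed over the whole range, with 0.860 ± 0.0347, 0.756 ± 0.0274 and 0.575 ± 0.0208, and the density at 190 bp was 1.22, 1.24 and 1.31 in these deciles.

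Ranked by the nucleosome, the differences at 0 bp were smaller. The density of small summits was 1.42 ± 0.0735 at 0 bp of the lowest nucleosome decile and 1.58 ± 0.0508 of the highest, and 0.837 ± 0.0510 and 0.653 ± 0.0326 at 100 bp. At 190 bp it was 1.17 ± 0.0328 around the lowest and 1.34 ± 0.0453 around the highest nucleosomes, a larger difference than that across small deciles. Nucleosome summit values are crowded near the floor, where 538094 positions share the value 176, so these deciles differ in size. With both lists divided into 5 parts by value, the density in the highest part of both was 1.80 at 0 bp, 0.518 at 100 bp and 1.38 at 190 bp, and in the lowest part of both 1.40, 0.863 and 1.17.

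**Figure D2:**
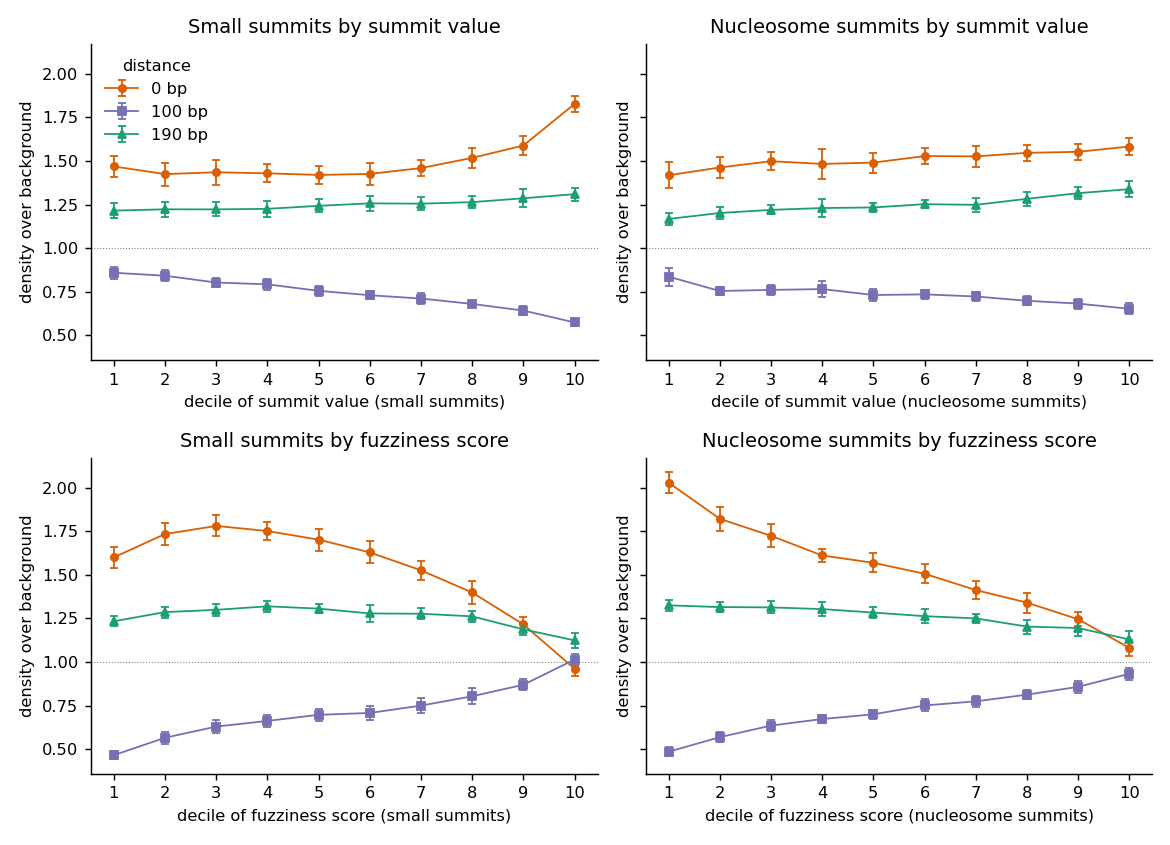
Density of summits of the other list over background (y axis) at 0 bp (circles), 100 bp (squares) and 190 bp (triangles), by decile (x axis) of summit value (top) and fuzziness score (bottom), for WT small summits (left) and WT nucleosome summits (right). Points are all autosomes together and bars the SD over 19 autosomes; in the highest decile of fuzziness all 3 distances approach 1.

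Over all pairs, the height of a small summit was nearly unrelated to the height of the nucleosome under it. Over the 1255962 pairs within 40 bp, Spearman's rho between both summit values was 0.0569 (0.0332 on chromosome 7 to 0.0886 on chromosome 1), and 0.0510 over pairs formed after the move. Pairs share mappability and regional coverage, and rho is given as a description. The most extreme small summits more often had a nucleosome summit nearby. Of the 52944 small summits in the highest 1%, 44.9% (95% Wilson interval 44.5% to 45.3%) had a nucleosome within 40 bp, and of the 5295 in the highest 0.1%, 62.2% (60.9% to 63.5%), against 24.9% and 34.9% after the move. A nucleosome of equally extreme rank was the partner of 11.4% and 29.8% of them. The highest position of each list had a value 46163 times the list's median among small structures and 123313 times among nucleosomes.

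The fuzziness score depended on distance from the nucleosome. Small structures had a median score of 52.5 ± 0.452 and nucleosomes 54.3 ± 0.118, and scores of small structures were spread more widely, with 10th and 90th percentiles of 43.1 and 59.9 against 49.4 and 58.2. Small summits within 40 bp of a nucleosome had a median of 52.4 ± 0.393, those at 70 to 130 bp of 54.0 ± 0.463, and those at 160 to 220 bp of 52.3 ± 0.438. By 10 bp steps the score was highest at 110 bp, with a median of 54.2, and reached a local low of 51.7 at 220 bp. Small summits more than 1 kb from any nucleosome were the sharpest class, with a median of 49.0 ± 0.371. Of the 7 classes, the one in the dip at about 100 bp was thus the fuzziest. Classes formed after the move had medians of 52.9 within 40 bp, 52.9 at 70 to 130 bp and 52.7 at 160 to 220 bp. The class over 1 kb had 50.7 after the move, so part of its low score did not depend on the nucleosome places.

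Within deciles of summit value, the 70 to 130 bp class stayed above all small summits and the class over 1 kb below them. The median of the 70 to 130 bp class was above that of all small summits of the same decile by a mean of 1.57 (0.961 to 1.99 over the deciles), whereas the class over 1 kb was below it by a mean of -2.75 (-3.33 to -1.92). The class within 40 bp differed by -0.123, with both signs among the deciles. In ranks of summit value, medians were at percentile 55.9 within 40 bp, 50.8 at 70 to 130 bp, 52.7 at 160 to 220 bp and 25.2 over 1 kb. Classes formed after the move had median ranks of 55.2, 54.6, 52.1 and 31.4, so the rank over 1 kb was low there too. Ranked only against small summits of the same 100 kb window, the observed medians were 54.0, 48.8, 52.1 and 36.7. Within a region, small summits in the dip were thus lower than those at 0 and at about 190 bp.

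**Figure D3:**
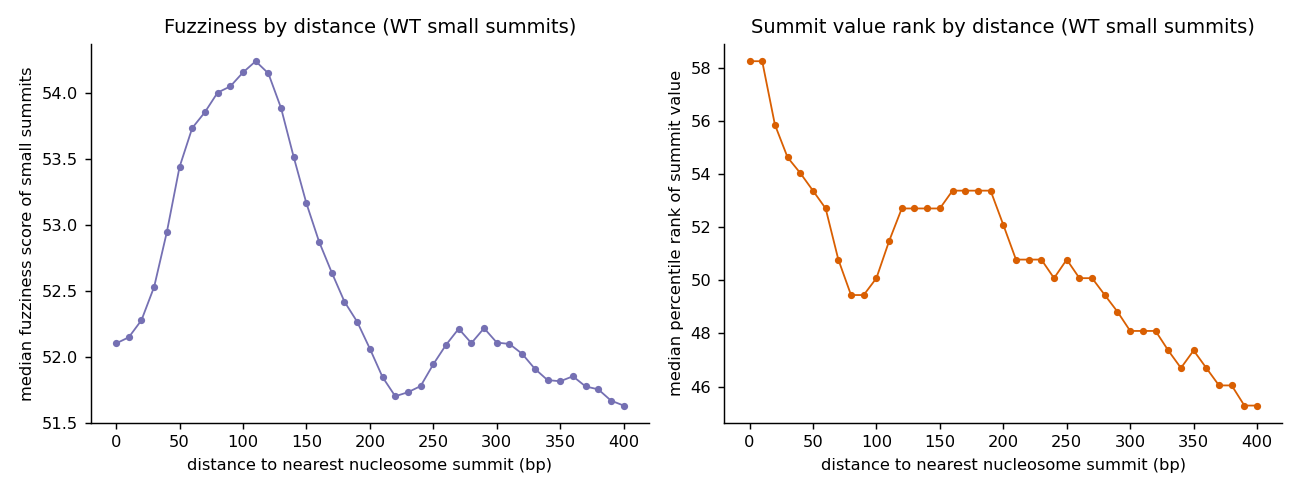
Median fuzziness score (left) and median percentile rank of summit value (right) of WT small summits, by distance in bp to the nearest WT nucleosome summit (x axis, 10 bp steps). The score peaks at 54.2 at 110 bp, and the rank is highest at 0 and 10 bp, with 58.2; the y axes do not start at 0.

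Nucleosomes showed the same pattern in the other direction. Their median score was 54.1 ± 0.0975 with a small summit within 40 bp, 55.1 ± 0.115 with the nearest one at 70 to 130 bp, 54.2 ± 0.113 at 160 to 220 bp and 53.0 ± 0.130 where none was within 1 kb. For classes formed after the move these medians were 54.4, 54.4, 54.3 and 53.7. Around the sharpest decile of nucleosomes, small-summit density was 2.03 ± 0.0606 at 0 bp, 0.486 ± 0.0264 at 100 bp and 1.32 ± 0.0301 at 190 bp. Around the fuzziest decile it was 1.08 ± 0.0476, 0.933 ± 0.0350 and 1.13 ± 0.0487. The difference at 0 bp was larger than that between the extreme deciles of nucleosome summit value.

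The fuzziest small structures showed little of the pattern at 0 and 100 bp. In the fuzziest decile of small summits the density was 0.961 ± 0.0415 at 0 bp, 1.01 ± 0.0299 at 100 bp and 1.12 ± 0.0415 at 190 bp, and the share within 40 bp was 1.05 times the moved share. In decile 3 the share was 25.1%, 1.53 times the moved one, and the density at 0 bp 1.78 ± 0.0604. The very sharpest decile stood slightly lower at 0 bp, with 1.60 ± 0.0593, and had the deepest dip of the small deciles at 100 bp, 0.466 ± 0.0244. Over pairs within 40 bp, rho between the fuzziness scores of both partners was 0.142 (0.128 to 0.152 over the autosomes), and 0.0226 over pairs formed after the move. By rho over all pairs, sharpness was thus weakly shared by the partners at a site and height hardly. Of the highest small summits, only a part had a partner of equally extreme rank.

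Along the chromosomes, both classes were dense in the same regions, and small structures varied more. Of 24731 windows of 100 kb, 23863 held at least 30 positions of each list. The windows held a median of 195 small-structure positions (5th and 95th percentiles 51 and 472) and 154 nucleosome positions (68 and 256). The SD over windows was 62.4% of the mean for small structures and 38.5% for nucleosomes. Pearson's r between both numbers was 0.851 and Spearman's rho 0.900 over windows. Within single autosomes rho was between 0.788 on chromosome 7 and 0.939 on chromosome 2. Windows share mappability and depth, so these values are descriptions.

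Small structures were concentrated in the windows rich in positions. The ratio of small to nucleosome numbers, each divided by its mean over windows, had 5th and 95th percentiles of -1.17 and 0.59 on the log2 scale. Past 2-fold lay 2545 of the windows (10.7%), of which 18 (0.0754%) were higher and 2527 (10.6%) lower. The number depends on the centring, since the median log2 ratio was -0.16: centred on that median, 93 windows were higher and 1233 lower. It also depends on the positions and windows used, with 27.5% past 2-fold for equal numbers of positions, 27.8% for positions above the median summit value and 3.93% in 1 Mb windows. Windows past 2-fold lower held a median of 62 small and 100 nucleosome positions and made up between 5.50% of the windows of chromosome 19 and 15.4% of those of chromosome 4. The log2 ratio rose with the number of small positions (rho 0.890, a number that is part of the ratio) and with the median summit value of the small structures (rho 0.781) and their median fuzziness (rho 0.713). With the nucleosomes' median summit value and fuzziness its rho was 0.354 and 0.371. Heights and numbers moved together within each list, with rho of 0.898 for small structures and 0.671 for nucleosomes. Since a weak site is missing from a list when its coverage is below the calling floor, fewer sites and lower coverage cannot be told apart in these windows.

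The ratio extended over regions larger than a window. Between adjacent windows its Pearson's r was 0.835, at 500 kb it was 0.636, at 1 Mb 0.487 and at 5 Mb 0.146. Among whole autosomes there were between 1.25 small positions per nucleosome position on chromosome 3 and 1.62 on chromosome 11. Chromosome 11 also had the most small positions per Mb, 2866, and chromosome 3 the fewest, 1693.

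**Figure D4:**
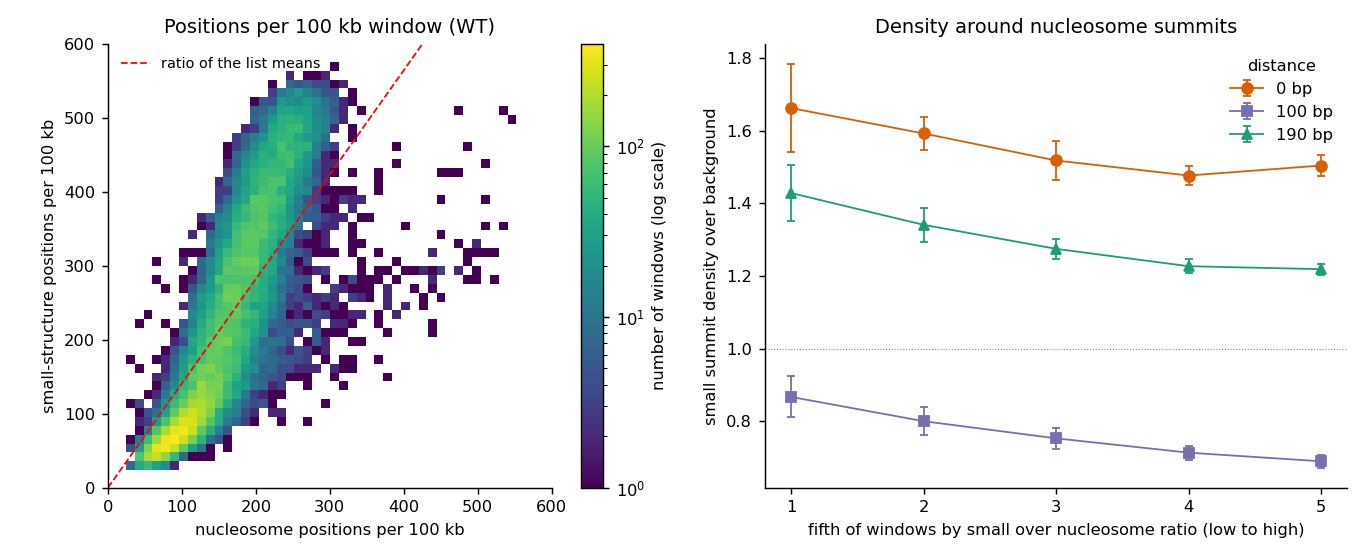
Left, number of 100 kb windows (colour, log scale) by small-structure positions (y axis) and nucleosome positions (x axis) in WT condensing spermatids; the dashed line is the ratio of the list means. Right, small-summit density over background around nucleosome summits at 0, 100 and 190 bp for 5 equal groups of windows by ratio (x axis, low to high), with the SD over 19 autosomes; all 3 values are lower in windows rich in small structures than in the group with the lowest ratio.

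The excess of small summits at nucleosomes differed between regions. In the 20% of windows with the lowest ratio, the share of small summits within 40 bp of a nucleosome was 1.74 times the share after the move (13.3%). In the middle 20% it was 1.44 times the moved share (22.8% against 15.9%), and in the highest 20% it was 1.30 times (24.1% against 18.6%). The excess over the move was thus smaller where the ratio was higher. The observed shares differed little between these groups, and the difference lay mainly in the shares after the move. The density at 0 bp was 1.66 ± 0.121, 1.52 ± 0.0538 and 1.50 ± 0.0286 in the same order, at 100 bp 0.867 ± 0.0565, 0.753 ± 0.0282 and 0.690 ± 0.0174, and at 190 bp 1.43 ± 0.0761, 1.27 ± 0.0277 and 1.22 ± 0.0149. Windows of lowest ratio had a median of 69 small positions and those of highest ratio 406.

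Of the nucleosomes, 15.7% had a small summit within 40 bp in the windows of lowest ratio and 48.6% in those of highest ratio, against 9.10% and 37.4% after the move. Median fuzziness of small structures was 50.1 in the windows of lowest ratio and 53.8 in those of highest ratio, and that of nucleosomes 54.0 and 54.3. The median rank of small summit values was at percentile 29.7 and 64.8, and that of nucleosome summit values at 50.5 in both.

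The most unequal windows lay on chromosomes 3, 4 and 17 (mm9 coordinates). Highest was chr17:6700001-6800000, with 171 small and 30 nucleosome positions (log2 ratio 2.01). In H2A.L.2-less cells it held 137 and 38. The next were chr4:42500001-42600000, with 224 and 43 (1.88), and chr4:42000001-42100000, with 300 and 67 (1.67). In H2A.L.2-less cells these held 94 and 25, and 201 and 38. Lowest was chr3:91600001-91700000, with 44 small and 136 nucleosome positions (-2.13), then chr4:113400001-113500000 with 30 and 91 (-2.10) and chr4:68500001-68600000 with 43 and 128 (-2.07). In H2A.L.2-less cells these 3 windows held 47 and 139, 30 and 95, and 39 and 123. All 6 windows kept the direction of their inequality there. Of the 18 windows past 2-fold higher, 5 were on chromosome 4. Genes were not placed, since the annotation at hand is of another build.

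Small summits at a nucleosome were also more often at a nucleosome position of other lists. Of the WT small summits within 40 bp of a WT nucleosome, 34.6% had an H2A.L.2-less condensing nucleosome within 40 bp, against 22.6% of those at 70 to 130 bp and 20.9% of those at 160 to 220 bp (18.8%, 18.4% and 17.8% after moving the other list). A WT round spermatid nucleosome lay within 40 bp of 49.2% of the first class, 41.3% of the second and 40.1% of the third, with 25.4%, 25.2% and 24.8% after the move. For WT spermatocyte nucleosomes the shares were 46.0%, 37.9% and 35.8%. Nucleosome lists share sites with each other, so these matches are not independent of the distance class.

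The small summits far from condensing nucleosomes still matched the earlier stages. Of the 120785 small summits more than 1 kb from a WT condensing nucleosome, 38.7% had a round spermatid nucleosome within 40 bp. This was 2.19 times the share after the move (17.6%), and 33.0% had a spermatocyte nucleosome there, 1.93 times. Over all small summits the shares were 42.4% and 38.5%, or 1.73 and 1.63 times. The shares of the far class were thus lower. Its higher ratios went with lower shares after the move, 17.6% against 24.5% over all for round spermatids. Only 11.1% of the far class had an H2A.L.2-less condensing nucleosome within 40 bp, against 11.7% after the move. A small structure of H2A.L.2-less cells lay within 40 bp of 46.3%, 3.85 times the share after the move.

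**Figure D5:**
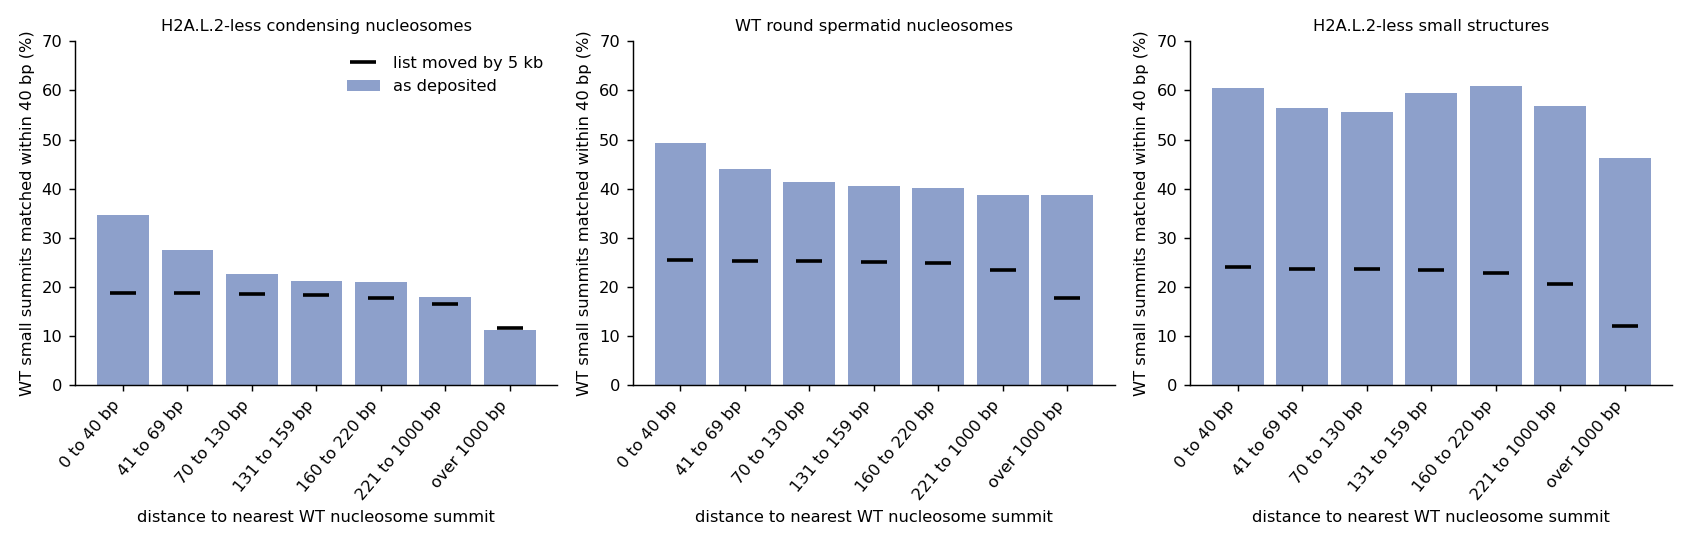
Percent of WT small summits (bars) with a summit within 40 bp in the list named above each panel, by distance to the nearest WT condensing nucleosome (x axis); black marks give the percent after that list was moved by 5 kb. The match to H2A.L.2-less condensing nucleosomes falls with distance to the level of the marks, and the match to H2A.L.2-less small structures stays far above them in all 7 classes.

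Recurrence of the small structure itself in H2A.L.2-less cells varied with its height far more than with its place. Of all classes together, 57.9% of WT small summits had an H2A.L.2-less small summit within 40 bp, against 22.4% after the move. The share was 60.6% at the nucleosome, 55.7% at 70 to 130 bp and 60.8% at 160 to 220 bp. By summit value, small summits at the nucleosome were matched in 21.9% of the lowest decile and 86.2% of the highest, against 16.2% and 33.8% after the move. Those at 70 to 130 bp were matched in 22.0% and 80.6%, against 15.8% and 34.4% after the move. The difference between the extreme deciles was thus far larger than that between the classes. The lowest decile lies near the calling floor, so weak sites that were not called cannot be told apart from sites that are absent.

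The same comparison within H2A.L.2-less condensing spermatids gave a curve of the same form with smaller departures from 1. Its 4047666 small and 3852646 nucleosome positions gave densities of 1.42 ± 0.0244 at 0 bp, 0.777 ± 0.0150 at 100 bp and 1.21 ± 0.0174 at 190 bp, and 1.29 times the moved share within 40 bp. The ranges over autosomes met those of WT at their ends: at 0 bp 1.38 to 1.48 in H2A.L.2-less cells and 1.48 to 1.55 in WT, and at 100 bp 0.746 to 0.804 and 0.701 to 0.755. At 190 bp they overlapped widely, with 1.17 to 1.25 in H2A.L.2-less cells and 1.22 to 1.29 in WT. With 1 library per genotype the difference has no replicate check. The H2A.L.2-less small list had a lower calling floor, with a first percentile of 96 against 272 in the WT small list, and a median fuzziness of 50.2 against 52.5.

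The patterns by height and sharpness of the small summits recurred there at 0 and 100 bp. In the highest decile of H2A.L.2-less small summits the density was 1.64 ± 0.0648 at 0 bp and 0.640 ± 0.0230 at 100 bp. In the lowest decile it was 1.33 ± 0.0778 and 0.891 ± 0.0337. At 190 bp these deciles differed little, with 1.22 in the highest and 1.18 in the lowest. By nucleosome height the difference at 0 bp was small, with 1.38 ± 0.0650 in the lowest decile and 1.44 ± 0.0696 in the highest. In the fuzziest decile of small summits the density was 0.997 ± 0.0325 at 0 bp and 0.968 ± 0.0352 at 100 bp. Small summits at 70 to 130 bp from a nucleosome had a median fuzziness of 51.6 ± 0.586, against 50.3 ± 0.523 within 40 bp and 45.3 ± 0.471 over 1 kb. For classes formed after the move these medians were 50.7, 50.8 and 47.7. The observed order of these 3 classes was the same as in WT. Over 100 kb windows, rho between small and nucleosome numbers was 0.888 in H2A.L.2-less cells, and between the small structures of both genotypes 0.994.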

How the data were processed

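Each sample of MNase fragments was sequenced 3 times and the aligned runs joined. Samples of the series had 207000000 to 753000000 reads, per the labels, and which sample had which number is not stated. The submitters' processing notes name mm9, deepTools 2.2.4 and Bowtie2 2.2.9. The authors' position caller, its version and its thresholds are not given in the sources used here beyond the name danpos. Deposited summit values are a coverage signal in whole multiples of 4 with no visible normalization, and the deposited fuzziness score is the authors' own, per the file headers.

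Summits on chromosomes 1 to 19 of 6 lists were used, with groups taken from the sample titles. Matching used 40 bp, and the comparison share a move of the other list by 5 kb. Distance curves counted pairs in 10 bp bins, both directions averaged, over the mean at 800 to 1000 bp. Deciles used average ranks within a list. Windows of 100 kb needed 30 positions of each list, and the ratio was called past 2-fold. Windows were named by rule: the top 3 and bottom 3 by log2 ratio. Intervals cover counting error only; Wilson half-widths over whole lists were at most 0.0478 points. Gene names and sequences were not placed, since the tables at hand are of another build. Members, distances and lists were chosen with earlier results of these data known. Alternatives were other matching distances, moves, backgrounds, bins, windows and subsets of positions. The code was tested on simulated data. Python 3.11.15, numpy 2.4.6, pandas 2.3.3, scipy 1.17.1, numba 0.67.0 and matplotlib 3.10.9 were used.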

Additional observations from a re-analysis of the deposited data

How the results depend on the processing

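All 3 departures from the background kept their direction under the alternatives tried. Densities at 0, 100 and 190 bp were 1.61, 0.626 and 1.31 for the higher 50% of positions by summit value, 1.55, 0.680 and 1.28 above the lower quartile, 1.54, 0.692 and 1.27 with equal numbers of positions, and 2.11, 0.467 and 1.39 with positions at or below the median fuzziness. A background from 1500 to 2000 bp gave 1.56, 0.748 and 1.29, and 30 bp bins (centred on 0, 90 and 180 bp) 1.48, 0.754 and 1.23. The share within 40 bp, in times the moved share, was 1.42 above the median, 1.39 above the quartile, 1.38 with equal numbers and 1.73 for the sharper positions. It was 1.49 within 20 bp, 1.26 within 73 bp and 1.40 with a move of 10000 bp. The difference between the highest and lowest deciles of small summit value in that ratio, 0.177, was 0.327 within 20 bp and 0.0365 within 73 bp, so its size rests on the matching distance. The fuzziness difference between 70 to 130 bp and 0 to 40 bp, 1.64, was 1.69 within deciles of summit value.

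Spearman's correlation between window numbers was 0.866 with equal numbers of positions, 0.761 with positions above the median summit value and 0.924 in 1 Mb windows. Windows past 2-fold were 27.5%, 27.8% and 3.93% in these settings, 11.1% with at least 1 position of each list, and 5.56% when centred on the median ratio, a choice made after seeing the data, so their number depends on the choice. Without the highest 0.1% of positions the 6 results recomputed stayed within counting error. No paired analysis was possible because each group has 1 library and no test was made. The calling floor and the unknown depth limit all numbers of positions, and distances are resolved to about 10 bp.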

Other observations

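Some windows held far more nucleosome positions than the rest. Of the 100 kb windows, 75 held at least 350 nucleosome positions, a limit set after the values were seen. Their medians were 293 small and 433 nucleosome positions. Because these windows were chosen by their nucleosome number, the ratio to small positions is low by that choice and is not read as a result. Of the 75 windows, 19 lay within chr5:94000001-96200000, with medians of 292 small and 449 nucleosome positions, and 13 within chr4:145200001-147200000, with 282 and 434. Medians over the 75 windows were 224 small and 444 nucleosome positions in H2A.L.2-less condensing spermatids, 338 nucleosome positions in WT round spermatids and 324 in WT spermatocytes. Which genes or repeats lie there was not analysed here.

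The alternation of gaps in steps of 20 bp was far stronger in the WT small list than in the other 5 lists read. Its even and odd steps were 9.94 points apart in share, against 1.89 points in H2A.L.2-less small structures and 0.743 to 1.31 points in the 4 nucleosome lists. Summits themselves fell equally on both phases of a 20 bp grid, with 49.4% each.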
